A study of Schizosaccharomyces pombe with 18 samples.

Results

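Many non-coding RNAs of fission yeast (Schizosaccharomyces pombe) are annotated on ground that another gene already occupies, most often on its other strand. Of the 7018 rows of the deposited RNA-seq table, 1540 carry a systematic non-coding RNA name (SPNCRNA), and 1115 of these share at least 1 base with a row of another kind. Leaving out 33 with a midpoint within 100 kb of a chromosome end and a further 4 by name left 1078 overlapping non-coding RNAs, which are described here beside the gene each shares most bases with. The choice used only names and positions, and no expression value. The 1078 lie on 954 different genes: 840 genes carry 1 of them, 106 carry 2 and 8 carry 3 or more, up to 4. For 350 of them more than 1 gene is overlapped.

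The study measured total RNA in 18 cultures of 6 genotypes with 3 replicates each: wild type (WT) and strains lacking 1 of the 5 subunits of SHREC. Cultures of 25 ml grew in YES, a rich medium, at 25 °C and 170 rpm. All strains are labelled h- (the M mating type) and carry the leu1-32 and ura4-D18 alleles. WT further carries ade6-210, arg3-D4 and his3-D1, and so do mit1D (mit1D::Natmx6) and chp2D (chp2D::KanR). The clr1D strain (clr1D::KanMX4, ade6-210/216?), the clr2D strain (clr2D::his7+, ade6-216) and the clr3D strain (clr3D::kanMX6, ade6-210) list arg3D and his3D instead. Each genotype is 1 strain, so replicates are cultures of that strain. The sample descriptions are codes whose meaning is not given. Those of WT and the clr deletions share a stem by replicate number and carry a suffix, and those of mit1D and chp2D do neither. Anything that goes with this difference in code cannot be told apart from the deletion for mit1D and chp2D against WT.

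Depth, recovered from the deposited values, ran from 26.2 to 101.8 M reads per library (M being 1000000), and the median overlapping non-coding RNA had 1041 reads in a library. By group it was 46.5 to 101.8 M in WT, 35.3 to 74.6 in clr1D, 42.0 to 82.8 in clr2D and 37.9 to 63.3 in clr3D. In mit1D it was 29.3 to 46.5 and in chp2D 26.2 to 32.9, so every chp2D library was below every WT library. Whether depth has a part in the changes below was not tested. The deleted gene was lower in its own strain each time: mit1 had a mean FPKM of 0.0158 against 13.5 in WT, clr1 2.41 against 13, clr3 4.93 against 35.7, and chp2 4.08 against 13.1. The clr2 row kept 76.2% of its WT level in clr2D, while the marker gene his7 stood at 337 there against 144 in WT. The M-cell gene mfm2 ran from 38.5 to 109 in the 18 libraries. The P-cell genes map2 and map3 were not absent, at 31.6 to 36.8 and 20.3 to 23.2. The other M-cell genes listed, mfm1, mfm3 and mam2, reached at most 10.4, 29.1 and 21.3, below map2 in every library. Whether these levels match the h- label was not tested.

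SHREC is a nuclear complex that silences heterochromatin: Clr3 removes acetyl groups from histones, Mit1 remodels nucleosomes, Chp2 is an HP1-family protein that binds methylated histone H3, and Clr1 and Clr2 hold the complex together. Antisense and other overlapping transcripts in this yeast are kept low by histone deacetylation, by nucleosome assembly and by decay in the nuclear exosome, and several of them are made mainly during meiosis or stress. A non-coding RNA may also be the host or the processed form of a small nucleolar RNA, which guides the modification or cleavage of ribosomal RNA.

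By strand, 868 of the 1078 run opposite to their main gene, 142 run the same way, and for 68 the strand of one partner was not known. By position, 276 lie wholly inside the gene, 133 contain the gene, and 669 overlap it in part, 449 of these at the gene's 5′ end and 214 at its 3′ end. The median overlap is 825 bases, or 80.9% of the non-coding RNA, whose median length is 1196 bases. The main gene is a protein-coding or other gene for 1021, a gene named for meiotic upregulation or meiotic expression (mug or meu) for 36, a ribosomal protein gene for 10, a small nucleolar RNA gene for 9 and a tRNA gene for 2.

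The overlap is shown for 3 antisense non-coding RNAs whose levels the results below turn on, and for 1 RNA that sits in an intron. Sequences are from RefSeq assembly ASM294v3, written 5′ to 3′ on the non-coding RNA's own minus strand. In the first 3, each stretch of 60 bases lies within the gene's coding sequence, and the capitals are the complement of the gene's start codon.
SPNCRNA.1309, antisense to alr2, chr2:107759-107818: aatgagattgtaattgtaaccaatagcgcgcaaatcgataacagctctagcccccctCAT
SPNCRNA.1401, antisense to mit1, chr2:982068-982127: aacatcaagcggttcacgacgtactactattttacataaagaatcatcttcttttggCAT
SPNCRNA.1331, antisense to clr3, chr2:254822-254881: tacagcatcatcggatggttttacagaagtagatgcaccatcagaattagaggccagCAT
snR191, within nog2, chr1:2735048-2735175: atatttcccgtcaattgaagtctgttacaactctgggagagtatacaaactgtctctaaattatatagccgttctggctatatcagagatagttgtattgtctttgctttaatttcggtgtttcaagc
The snR191 sequence is shown whole, 128 bases, because that RNA moved against its host gene. It runs the same way as nog2 and falls within the nog2 intron at 2734928 to 2735331 of chromosome I.

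In WT the rows of overlapping non-coding RNAs stood higher than those of non-coding RNAs that overlap no gene. These are row levels, which may include reads of the overlapped gene. FPKM counts fragments per kilobase of transcript and per fixed number of sequenced fragments, so levels of different genes can be set side by side. The median WT level was 19.0 FPKM over the 1078, with quartiles of 8.82 and 36.0. Their main genes had a median of 28.0, the 425 non-coding RNAs that overlap no gene had 3.06, and all rows that are not non-coding RNAs had 34.7.

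The level of an overlapping non-coding RNA followed its gene the more closely the more of it was shared. Over 860 opposite-strand pairs past the filter on low values, the median ratio of non-coding RNA to gene in WT was 0.854. Where under 25% of the non-coding RNA was shared (79 pairs) the median ratio was 0.246, at 25 to 50% (94 pairs) it was 0.581, and at 50 to 75% (157 pairs) it was 0.783. It was 0.884 from 75% to just short of the whole (308 pairs) and 1.04 for the 222 wholly inside the gene, of which 131 (59%) lay within 1.25-fold of the gene. Same-strand pairs had a median of 0.232 over 138 pairs, and 0.888 for the 31 wholly inside.

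Whether the authors counted reads by strand is not given in the sources used here, so the reads of a non-coding RNA and of a gene on the other strand cannot be told apart in these values. Levels and changes below are those of the table row, and where the gene moved too, they do not say which strand moved. Only 7 of the 222 opposite-strand non-coding RNAs wholly inside a gene had under 0.25 of the gene's level. The lowest ratio was 0.0216. Of all 276 inside a gene, 2 had more reads than the gene in any library, namely SPNCRNA.847 in nog2 and SPNCRNA.1226 in plb5. Both are listed as longer than the gene's transcript, at 2059 against 1872 bases and 3844 against 3715. Their WT FPKM was below the gene's, at 86.0 against 87.1 and 8.45 against 8.56.

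**Figure D1:**
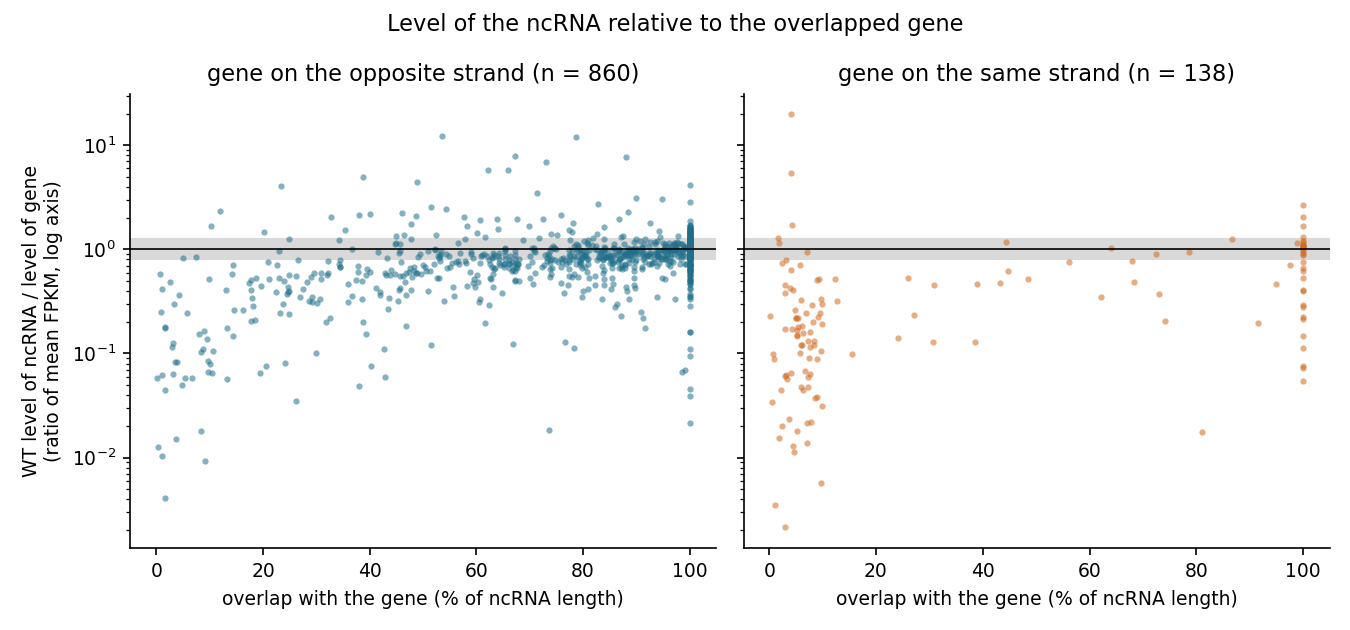
Ratio of the WT level (mean FPKM of 3 libraries) of each overlapping non-coding RNA to that of its main gene, on a log axis, against the percent of the non-coding RNA that is shared, for 860 opposite-strand and 138 same-strand pairs. The grey band marks 1.25-fold; opposite-strand pairs approach it from a median of 0.246 under 25% overlap to 1.04 when the non-coding RNA lies wholly inside the gene.

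The 5 most abundant sit on tef103, SPAC27E2.11c, rps20 and the small nucleolar RNA genes snoZ16 and snR30. SPNCRNA.1376, inside tef103 (translation elongation factor 1-alpha), had 3190, 3290 and 3190 FPKM in WT. In mit1D it had 2530, 2580 and 2530, and in chp2D 2650, 2710 and 2570, so neither group overlapped WT (log2 fold changes -0.34 ± 0.05 and -0.28 ± 0.05, limma adjusted p = 8.9e-05 and 0.00048). Near-identical copies of tef103 exist in the genome, so both values are uncertain. prl53, on SPAC27E2.11c, had a mean of 3140 in WT and 2920 to 3140 in the deletions. SPNCRNA.727, which contains the small nucleolar RNA gene snoZ16, had 2970, SPNCRNA.906 on snR30 had 1540, and SPNCRNA.1261 on rps20, a ribosomal protein gene, had 1450.

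How many overlapping non-coding RNAs changed in each deletion was close to the share of all rows that changed. Levels were scaled by median ratios, 1 was added, and their log2 was fitted by limma over all 18 libraries together. Rows with an adjusted p under 0.05 count as called. Of the 1067 that passed a floor of 1 FPKM in 3 or more libraries, 206 (19.3%) were called in clr1D, 121 higher and 85 lower, beside 17.6% of all 6693 rows. In clr2D 140 (13.1%) were called, 89 higher and 51 lower, beside 12.3% of all rows. In clr3D 291 (27.3%) were called, 135 higher and 156 lower, beside 29% of all rows.

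In mit1D 276 (25.9%) were called, 174 higher and 102 lower, beside 27.2% of all rows. In chp2D 252 (23.6%) were called, 150 higher and 102 lower, beside 22.6% of all rows. All 5 comparisons share the WT libraries. The non-coding RNAs that overlap no gene were called at 28.5, 24.1, 27.6, 26.7 and 23% for the deletions in that order, of 344 tested. Changes of the overlapping ones were small: the median size among those called was between 0.21 and 0.31 on the log2 scale, and at most 3 rose and 3 fell by 2-fold or more on that scale in any deletion. With the replicate number as a block among the 12 libraries where numbers pair, the counts were 299 in clr1D, 251 in clr2D and 396 in clr3D. The share of all rows called in that fit is not given here.

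The split of higher and lower depended on the scaling in 3 deletions. On FPKM as deposited it was 157 higher and 47 lower in clr1D, 139 and 129 in mit1D, and 101 and 131 in chp2D. In clr2D it was 93 and 38, and in clr3D 113 and 136. The scaling moved the median of all rows by at most 0.042 on the log2 scale.

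**Figure D2:**
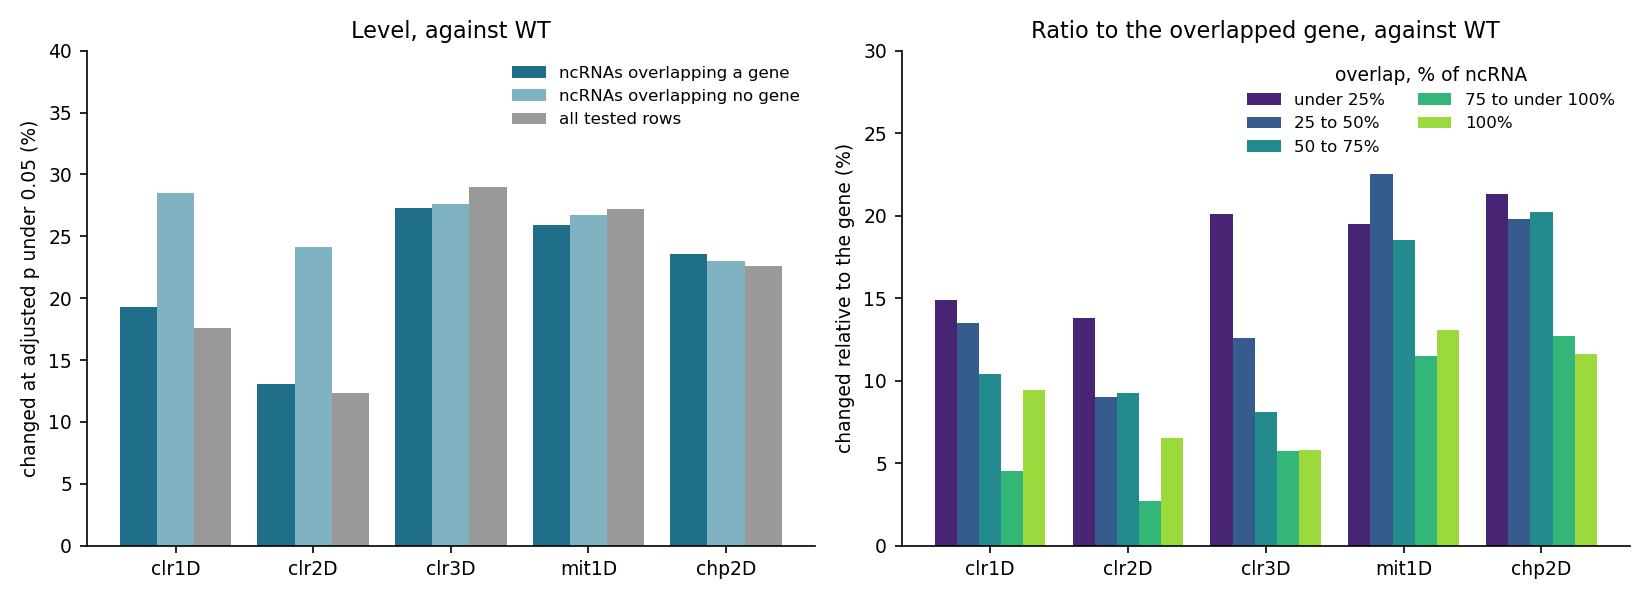
Left, percent of rows called changed (limma adjusted p under 0.05) in each deletion against WT, for overlapping non-coding RNAs, non-coding RNAs overlapping no gene and all rows. Right, percent of overlapping non-coding RNAs whose ratio to the gene changed, by the share of the non-coding RNA that is overlapped. Overlapping non-coding RNAs were called at 13.1 to 27.3% against 12.3 to 29% of all rows, and the right bars are highest under 25% overlap in all but mit1D, where 25 to 50% is higher (22.5 against 19.5%).

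The antisense RNAs of mit1 and clr3 were low where those genes were deleted. Each lies on the deleted gene, so its own template was removed along with it, in whole or in part. These falls are therefore not read as a change in the expression of an intact RNA gene. SPNCRNA.1401 lies wholly inside mit1 on the other strand (chromosome II, 982042 to 983573). It had 14.2, 13.7 and 14.2 FPKM in WT, was listed at 0 in all 3 mit1D libraries, and ran from 12.6 to 14.4 in the other 12 libraries (limma adjusted p = 1.2e-18). SPNCRNA.1331 contains clr3 on the other strand (chromosome II, 254617 to 257138). Its level was 34.8, 34.6 and 34.4 in WT and 6.38, 6.06 and 4.5 in clr3D, far apart, with a log2 fold change of -2.43 ± 0.07 (limma adjusted p = 1e-12). The clr3 row itself went from 35.7 to 4.93, and the ratio of SPNCRNA.1331 to clr3 was higher by 0.24 ± 0.01 on the log2 scale (limma adjusted p = 3.6e-09).

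A second group of rows was near 0 in mit1D. SPNCRNA.1213 (chromosome III, 1647025 to 1649005) contains SPCC663.08c on the other strand and overlaps SPCC663.07c by 372 bases. It had 30.7, 16.9 and 16.7 FPKM in WT, 0.404, 0.294 and 0.286 in mit1D, and 14.2, 14.9 and 14.6 in chp2D. The mit1D libraries lie far below all others, at a log2 fold change of -4.02 ± 0.20 (limma adjusted p = 1.3e-09). SPCC663.08c fell in step, from 39.3, 21.9 and 21.4 to 0.0311, 0.0 and 0.0195, and SPCC663.07c from a mean of 18.9 to 0.222. SPNCRNA.1213 also gave the largest rise relative to its gene in mit1D, by 2.23 ± 0.06 on the log2 scale of the ratio (limma adjusted p = 3.6e-12), where the gene's reads were next to none. The labels name no deletion at this place.

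SPNCRNA.1309 was among the largest rises in 4 deletions. It runs antisense to alr2, a gene for an alanine racemase, over 1192 bases (chromosome II, 107514 to 108774). In WT it had 17.2, 27.1 and 17.7 FPKM. It had 47.6, 100 and 53.3 in clr1D, 42.2, 86.5 and 45.1 in clr2D, 74.0, 73.1 and 84.3 in mit1D, and 82.9, 81.8 and 76.7 in chp2D. None of these 4 groups overlapped WT, and replicate 2 was highest in WT and in each clr deletion.

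The log2 fold changes of SPNCRNA.1309 were 1.6, 1.40, 1.88 and 1.94, each ± 0.29 (limma adjusted p = 0.0013, 0.0047, 0.00028 and 0.00027). In clr3D it had 28.6, 49.1 and 27.3, at 0.71 ± 0.29 and an adjusted p of 0.08 by limma, which did not pass. With the replicate number as a block, which pairs the clr deletions with WT, that difference was 0.71 ± 0.20 and was called (limma adjusted p = 0.012), as was that of alr2 (limma adjusted p = 0.0099). The alr2 row went from 13.2, 21.2 and 13.4 in WT to 58.4, 57.1 and 66.4 in mit1D. The ratio of SPNCRNA.1309 to alr2 did not pass in any deletion, with differences of -0.03 to -0.02 on the log2 scale.

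Some other rises in the clr deletions were of weakly expressed RNAs. SPNCRNA.869 reaches 179 bases into SPAPB1A11.02 and had 0.626, 0.0871 and 0.33 FPKM in WT. It had 2.07, 1.62 and 1.38 in clr1D, 2.51, 1.7 and 1.77 in clr2D, with 1.39, 0.894 and 1.57 in clr3D, all above every WT library. The log2 fold changes were 1.01, 1.16 and 0.77, each ± 0.17 (limma adjusted p = 0.00083, 0.00031 and 0.004), and the gene's mean rose from 0.688 to 3.09, 3.56 and 2.06. SPNCRNA.869 reached the floor of 1 FPKM in no WT library. It entered the test through deletion libraries, so its rise is not independent of the filter.

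SPNCRNA.275 runs the same way as isp5, an amino acid permease gene, and overlaps its 5′ part by 364 bases. It went from 2.9, 1.86 and 1.98 in WT to 5.68, 5.11 and 4.8 in clr1D, 5.42, 3.94 and 4.28 in clr2D, with 4.64, 4.0 and 4.03 in clr3D, without overlap (limma adjusted p = 0.0001, 0.00078 and 0.001). The isp5 row was called only in clr3D of these 3, from 2.97 to 5.44, with limma adjusted p = 0.013 there and 0.16 and 0.28 in clr1D and clr2D. Whether the deletions differ was not tested.

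SPNCRNA.571 lies antisense to rem1, which encodes a cyclin made in meiosis. It had 1.65, 1.11 and 0.994 FPKM in WT, 3.72, 2.85 and 2.3 in clr1D and 3.22, 2.89 and 2.52 in clr2D, with log2 fold changes of 0.81 ± 0.14 and 0.79 ± 0.14 (limma adjusted p = 0.001 and 0.0015). In clr3D its mean was 1.09, against 1.25 in WT. The rem1 row rose with it, from 1.57 to 3.70 and 3.58. SPNCRNA.1087, antisense to gto1, had 14.1, 4.59 and 8.18 in WT against 23.1, 18.8 and 12.6 in clr1D, where the groups overlap, and 24.1, 21.5 and 24.1 in clr2D, where they do not. Both were called (limma adjusted p = 0.013 and 0.0019), but in clr1D the call is lost without clr1D replicate 1. Both calls are lost when only the 2 groups compared are fitted.

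Both RNAs on the 5′ part of clr5, a gene with a role in silencing, rose in all 3 clr deletions. SPNCRNA.270 runs the same way as clr5 and went from 11.8, 9.14 and 9.02 FPKM in WT to 14.1, 14.9 and 15.8 in clr1D, 15.1, 13.9 and 16.6 in clr2D, with 16.1, 17.1 and 16.3 in clr3D. SPNCRNA.1083 runs opposite to it and overlaps clr5 by 979 bases, and its mean went from 9.87 to 13.7, 13.9 and 15.3. The clr5 row went from 13 to 14.4, 14.7 and 16 and was called in clr3D (limma adjusted p = 0.34, 0.26 and 0.034). Whether the deletions differ was not tested. The ratio to clr5 was higher in all 3 clr deletions for both, by 0.42 to 0.43 for SPNCRNA.270 (limma adjusted p = 0.0039 to 0.0067) and 0.32 to 0.34 for SPNCRNA.1083 (limma adjusted p = 0.0046 to 0.012). These RNAs share bases with each other and are not independent.

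In mit1D and chp2D other RNAs were among the largest rises, and for some of them the gene rose in the clr deletions too. nc-tco1 contains tco1 and runs the same way. It had 24.5, 20.8 and 18.1 FPKM in WT, 34.3, 36.2 and 34.4 in mit1D and 35.3, 36.5 and 34.6 in chp2D (log2 fold changes 0.71 ± 0.10 and 0.73 ± 0.10, limma adjusted p = 8e-05 and 7.9e-05). The tco1 row rose from 23.3 to 39.6 and 39.9, and nc-tco1 stayed between 19.4 and 21.1 in the clr deletions.

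SPNCRNA.1485, around SPBC18E5.15, went from 6.42, 7.22 and 6.05 to 13, 11.9 and 11.8 in mit1D and 11.5, 10.7 and 11.1 in chp2D (limma adjusted p = 1.7e-07 and 2.2e-06). SPNCRNA.226, inside SPAC17G6.03, rose from 0.894 to 2.03 and 2.34 (limma adjusted p = 0.0096 and 0.0032). Its WT mean was under the floor of 1 FPKM. It may have entered the test through deletion libraries, so its rise may not be independent of the filter. SPNCRNA.811 on ssa1, an Hsp70 chaperone gene, rose from 6.80 to 9.43 and 11.9 (limma adjusted p = 0.012 and 0.00037). The ssa1 row was called higher in all 5 deletions. It went from 26.0 to 32.8, 31.1 and 41.3 in clr1D, clr2D and clr3D, and to 38.4 and 41.3 in mit1D and chp2D. SPNCRNA.570, inside SPBC30B4.09, rose from 20.3 to 34.1 in mit1D (limma adjusted p = 0.014), a call that is lost without mit1D replicate 3. It was also higher in clr1D and clr2D, by 0.55 and 0.51 on the log2 scale. Those were called with the replicate block alone (limma adjusted p = 0.07 and 0.11, and 0.02 and 0.035 with the block). The SPBC30B4.09 row went from 15.5 to 24.0, 23.1 and 23.5 in the clr deletions, and to 26.7 and 25.7 in mit1D and chp2D.

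**Figure D3:**
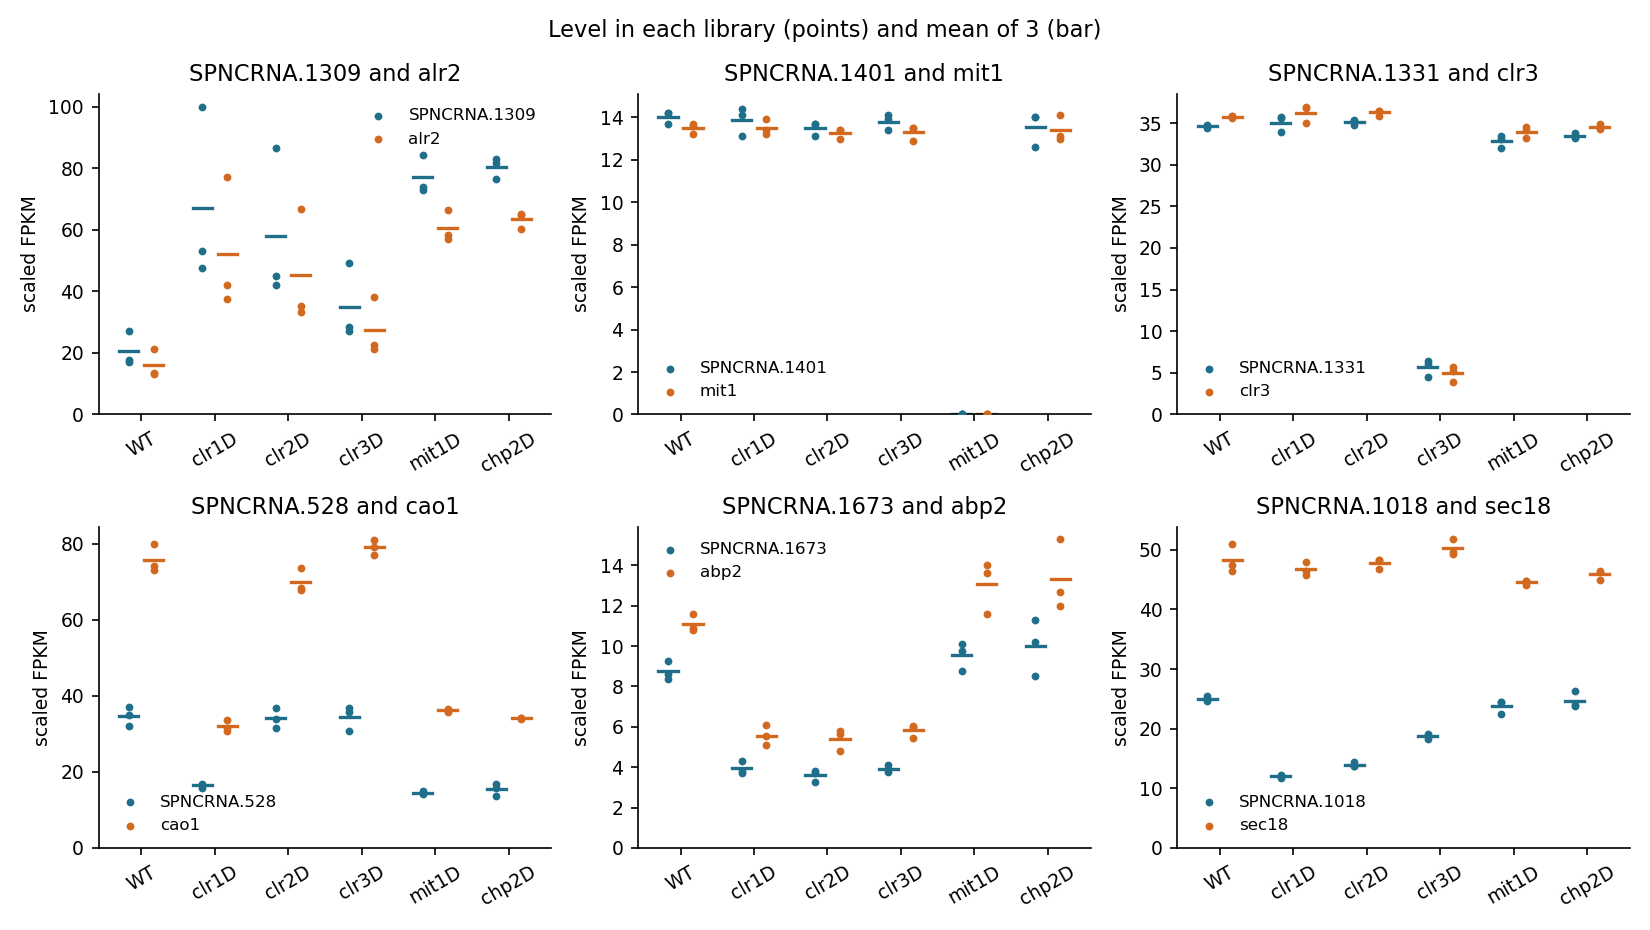
Scaled FPKM in each of the 18 libraries for 6 overlapping non-coding RNAs and the gene each overlaps, 1 panel per pair, points for libraries in 6 groups of 3 and short lines for the group means. SPNCRNA.1309 and alr2, SPNCRNA.1401 and mit1, SPNCRNA.1331 and clr3, SPNCRNA.528 and cao1, and SPNCRNA.1673 and abp2 move together, whereas SPNCRNA.1018 falls in the clr deletions (25.0 in WT to 12 in clr1D) beside a flat sec18.

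Among the falls, some were shared with the gene. prl3 lies inside SPAC806.11 on the same strand and had 181, 179 and 145 FPKM in WT. It had 81.3, 83.8 and 61.5 in clr1D, 93.3, 84.7 and 67.2 in clr2D, with 111, 108 and 81.9 in clr3D, all below WT (log2 fold changes -1.15, -1.04 and -0.75, each ± 0.14, limma adjusted p = 2.4e-05, 8.8e-05 and 0.00085). Because prl3 is nearly the whole of SPAC806.11, whose mean fell from 152 to 68.5, 74.0 and 90.4, the pair is close to 1 measurement.

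SPNCRNA.1673, antisense to the 5′ part of abp2, an ARS-binding protein gene, had 8.38, 8.63 and 9.27 FPKM in WT. It had 4.29, 3.71 and 3.82 in clr1D, 3.82, 3.29 and 3.71 in clr2D, with 4.09, 3.74 and 3.9 in clr3D, and 8.53 to 11.3 in mit1D and chp2D. The 3 clr groups lie below all other libraries, with log2 fold changes of -0.98, -1.08 and -0.99, each ± 0.08 (limma adjusted p = 5.3e-07, 2e-07 and 5.8e-07). The abp2 row fell from 11.1 to 5.57, 5.42 and 5.83. Relative to abp2, SPNCRNA.1673 fell further in clr2D and clr3D, by 0.23 and 0.22 on the log2 scale (limma adjusted p = 0.028 and 0.023).

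SPNCRNA.528, of unknown strand and inside cao1, a copper amine oxidase gene, divided the deletions another way. It had 37.0, 32.1 and 35.1 FPKM in WT, 16.8, 15.9 and 16.7 in clr1D, 15, 14.5 and 14.1 in mit1D and 13.8, 15.7 and 16.8 in chp2D. In clr2D and clr3D it stayed within the WT range or just under it, at 36.9, 31.5 and 33.9 and at 36.9, 30.8 and 35.7. The log2 fold changes were -1.03, -1.20 and -1.12, each ± 0.08, in clr1D, mit1D and chp2D (limma adjusted p = 9.3e-08, 2.2e-08 and 8.7e-08). The cao1 row followed, from 75.8 to 32.0, 36.2 and 34.1, against 70.0 and 79.2 in clr2D and clr3D.

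SPNCRNA.793 contains obr1 and fell in all 5 deletions. It had 315, 310 and 326 FPKM in WT and means of 168, 180, 196, 240 and 233 in clr1D, clr2D, clr3D, mit1D and chp2D. No deletion library reached WT, and limma adjusted p ran from 7.9e-09 in clr1D to 9.6e-05 in mit1D. The obr1 row fell from 751 to 389, 419, 456, 562 and 548. SPNCRNA.293, antisense to pfl7, a gene of the flocculin family, fell in clr3D alone among the clr deletions, from 7.12, 7.18 and 7.56 to 4.42, 4.26 and 2.99 (limma adjusted p = 0.00025), with means of 8.21 and 7.60 in clr1D and clr2D. That difference between the deletions was not tested.

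Other falls left the main gene behind. SPNCRNA.1018 shares 344 bases with sec18, a vesicle fusion ATPase gene (chromosome I, 4721254 to 4722882). It had 25.4, 24.6 and 24.9 FPKM in WT, 11.8, 12.3 and 12 in clr1D, 13.8, 14.4 and 13.7 in clr2D, with 19.1, 18.3 and 18.7 in clr3D, none of which overlap WT or each other. The log2 fold changes were -1.0, -0.80 and -0.40, each ± 0.04 (limma adjusted p = 6.6e-11, 1.8e-09 and 6.2e-06), while sec18 went from 48.3 to 46.8, 47.7 and 50.2 and was not called. The ratio to sec18 fell by 1.0, 0.82 and 0.47. The RNA also shares 77 bases with pex7, the gene of a peroxisomal import receptor, whose level fell from 226 to 86.7, 107 and 166. It also contains SPAC1834.13, of 237 bases, which went the other way, from 3.72 to 8.30, 7.13 and 6.08 (limma adjusted p = 0.0063, 0.028 and 0.055, the last 0.0051 with the replicate block).

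SPNCRNA.1626 is antisense to mbx2, which encodes a MADS-box transcription factor, over 2635 bases, and also overlaps SPBP8B7.32. It had 35.6, 36.0 and 31.2 FPKM in WT, 18.4, 19.8 and 17.1 in clr1D, 20.1, 21.5 and 18.5 in clr2D, with 24.4, 27 and 22.4 in clr3D, all below WT (limma adjusted p = 3.4e-07, 2.4e-06 and 0.00019). The mbx2 row went from 13.3 to 12.3 in each of the 3 and was not called, whereas SPBP8B7.32 went from 58.8 to 33.2, 36.0 and 44.2. With both genes weighted by overlap as the partner, the relative fall had a limma adjusted p of 0.035 in clr1D, 0.085 in clr2D and 0.27 in clr3D.

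In clr3D, 2 RNAs that barely touch their gene fell. SPNCRNA.437 shares 13 bases with sec13, a COPII coat gene, and went from 2.70, 2.54 and 2.55 to 1.69, 1.05 and 1.24 (limma adjusted p = 0.00046). SPNCRNA.1159 shares 17 bases with tal1, a transaldolase gene, and went from 3.57, 3.50 and 3.44 to 2.16, 2.02 and 1.86 (limma adjusted p = 0.00031). Neither gene was called. In chp2D, SPNCRNA.1598 fell from 2.68 to 1.58 (limma adjusted p = 0.0015), and SPNCRNA.166, antisense to rad4, a replication and checkpoint gene, from 3.54 to 2.04 (limma adjusted p = 0.016). The call of SPNCRNA.166 is lost without WT replicate 1 and without chp2D replicate 1.

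Where both were called, the non-coding RNA mostly moved the way of its gene, but in many pairs the gene was not called. In clr1D, 113 of 205 called pairs had the gene called in the same direction, 6 in the opposite one, and in 86 the gene was not called. In clr2D the counts were 69, 3 and 67 of 139, and in clr3D 208, 8 and 75 of 291. In mit1D they were 183, 5 and 88 of 276, and in chp2D 155, 7 and 90 of 252.

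The share that moved with the gene was higher where more was overlapped. Where at least 75% of the non-coding RNA is shared, the gene was called in the same direction for 65 of 99 in clr1D, 42 of 68 in clr2D, 142 of 171 in clr3D, 118 of 161 in mit1D and 91 of 137 in chp2D. Under 25% it was so for 12 of 46, 7 of 33, 18 of 54, 20 of 41 and 22 of 45. Across the 530 opposite-strand pairs with at least 75% overlap, the log2 fold changes of RNA and gene had a Pearson r of 0.83, 0.83, 0.92, 0.93 and 0.85. These points share libraries and, within a pair, ground that both rows cover, so r does not measure separate responses. The 530 include SPNCRNA.1401, which lies on the gene deleted in mit1D. In mit1D against chp2D, where 1 of these RNAs was called, r was 0.97.

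**Figure D4:**
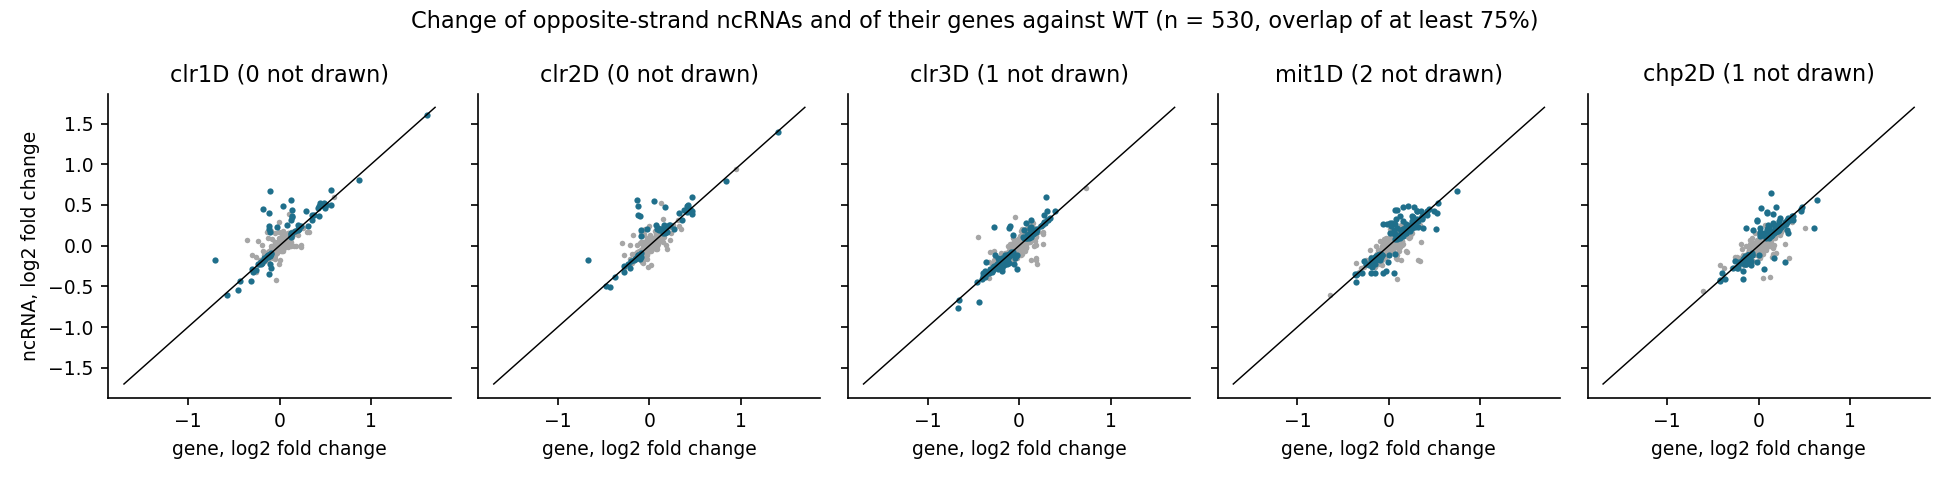
Log2 fold change of the non-coding RNA against that of its gene for each deletion, over 530 opposite-strand pairs with at least 75% of the non-coding RNA overlapped; axes run to 1.7 and 1, 2 and 1 pairs beyond them in clr3D, mit1D and chp2D are not drawn. The drawn points lie along the diagonal, and r, from 0.83 to 0.93, is over all 530 pairs, with those not drawn.

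Over the 18 libraries the level of the non-coding RNA had a median r of 0.89 with that of its gene (1063 pairs, log2 levels), and 0.82 for deviations from the genotype means. The 5 highest r were near 1.0 and belonged to prl53, prl3, SPNCRNA.906, SPNCRNA.1051 around cbf5, a pseudouridine synthase gene, and SPNCRNA.1508 on iws1, a transcription elongation factor gene. SPNCRNA.1508 had a mean of 51.0 FPKM in WT, equal to iws1, and both stood at 57.9 in chp2D. The lowest r belonged to SPNCRNA.1355 on cys2 (-0.856), SPNCRNA.1528 inside tri1 (-0.771), SPNCRNA.1141 on erv29 (-0.768), SPNCRNA.271 on SPAC29B12.14c (-0.759) and SPNCRNA.439 on fkh2 (-0.758). SPNCRNA.1528 is the one of these 5 that lies wholly inside its gene, and it had 6.18 FPKM in WT beside 160 for tri1.

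SPNCRNA.271 shares 32 bases with SPAC29B12.14c and was called higher in all 3 clr deletions while the gene was called lower. It went from 6.82, 8.30 and 6.57 FPKM in WT to 9.68, 10.9 and 11.1 in clr1D, 9.83, 10.6 and 9.26 in clr2D, with 9.97, 10.1 and 7.84 in clr3D, where it overlaps WT. The gene's mean went from 10.1 to 7.46, 7.91 and 8.56 (limma adjusted p for the RNA 0.0035, 0.016 and 0.027, for the gene 0.0025, 0.014 and 0.047). SPNCRNA.1035, described after its values were seen, shares 15 bases with rpn502, a proteasome gene with a near-identical copy. It went from 13.1, 16 and 17.6 to 23.7, 27.8 and 28.3 in clr1D, without overlap (log2 fold change 0.74 ± 0.10, limma adjusted p = 0.0001), while rpn502 went from 43.2 to 39.2 (limma adjusted p = 0.038).

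To ask which non-coding RNAs moved apart from their gene, the log2 ratio of each to its gene was tested with limma over 2846 overlapping pairs of rows. Of 1063 pairs of a non-coding RNA and its gene, 100 (9.41%) were called in clr1D, 75 higher and 25 lower, beside 11.4% of all pairs. In clr2D 77 (7.24%) were called, 59 higher and 18 lower, beside 8.47%, and in clr3D 98 (9.22%), 55 and 43, beside 16.3%. In mit1D 165 (15.5%) were called, 79 and 86, beside 20.6%, and in chp2D 168 (15.8%), 82 and 86, beside 18.5%. The mit1D count was 107 without WT replicate 3 and 103 without mit1D replicate 2, and the chp2D count 111 without WT replicate 3.

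Under 25% overlap 14.9, 13.8, 20.1, 19.5 and 21.3% of pairs were called in clr1D, clr2D, clr3D, mit1D and chp2D, and wholly inside the gene 9.45, 6.55, 5.82, 13.1 and 11.6%. Among 368 opposite-strand pairs with at least 75% overlap and a single gene, 20 were called in clr1D, 17 of them higher, and 12 in clr2D, 11 of them higher. In clr3D 20 were called (11 higher), in mit1D 38 (15 higher) and in chp2D 40 (17 higher). These are 5.43, 3.26, 5.43, 10.3 and 10.9% of the 368, beside 11.4, 8.47, 16.3, 20.6 and 18.5% of all pairs, so each is below that share. The 368 were chosen for large overlap, and reads that both rows count can hold a ratio near no change. The lower share is therefore not read as a result about these RNAs. Over the 1063 pairs too, most called were higher in clr1D (75 of 100) and clr2D (59 of 77). The difference in direction between deletions was not tested.

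The next 6 RNAs, from SPNCRNA.1400 to SPNCRNA.660, were picked from these pairs after their values were seen, except SPNCRNA.813, which the naming rule also took. SPNCRNA.1400 lies inside ecl2, a gene for an extender of chronological lifespan, and had 2.74, 3.08 and 3.46 FPKM in WT beside 133, 142 and 154 for ecl2. It had 5.18, 5.66 and 5.65 in clr1D and 4.42, 4.91 and 4.84 in clr2D, above every WT library, while ecl2 had means of 133 and 132 against 143 and was not called. Relative to ecl2 it rose by 0.92 ± 0.12 and 0.72 ± 0.12 on the log2 scale (limma adjusted p = 0.00028 and 0.0029).

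prl34, inside SPBC36.01c, went from 19.0, 20.9 and 17.6 to 27.4, 26.7 and 25.4 in clr1D, 27.7, 23.4 and 24.8 in clr2D, with 23.4, 22.6 and 22.0 in clr3D, above WT in each. The gene's mean was 16.4 in WT and 14.3, 14.9 and 13.4 in those deletions, and the ratio rose by 0.66, 0.53 and 0.53, each ± 0.07 (limma adjusted p = 2.8e-05, 0.00024 and 0.00023). The clr2D call of this ratio is lost when only the 2 groups compared are fitted. SPNCRNA.1625, antisense to the 5′ part of mbx2, went from a mean of 9.98 to 13.5 in clr1D and 13.1 in clr2D, with ratios higher by 0.55 and 0.50 (limma adjusted p = 7.9e-05 and 0.00021). It lies on mbx2 beside SPNCRNA.1626, which fell. SPNCRNA.1317, inside mal1, a maltase gene, rose in clr2D, from 24.2, 24.0 and 21.0 to 34.1, 35.5 and 33.4, with a ratio higher by 0.72 ± 0.08 (limma adjusted p = 9.3e-05). In clr1D it had 21.6, 22.3 and 18.9 and did not pass.

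In mit1D and chp2D such pairs went both ways, with 15 of 38 and 17 of 40 called higher. Falls are shown here. SPNCRNA.813, on SPAC6C3.03c, had 3.92, 3.75 and 3.93 FPKM in WT, 3.39, 2.97 and 3.65 in mit1D and 3.31, 2.89 and 3.53 in chp2D, below every WT library. Its gene rose from 8.18 to 10.5 and 10.3, and the ratio fell by 0.56 and 0.57, each ± 0.07 (limma adjusted p = 0.00011 and 0.00015). SPNCRNA.660, antisense to pol4, a DNA polymerase gene, went from 8.76, 7.43 and 8.02 to 5.89, 6.40 and 6.15 in mit1D and 6.44, 6.52 and 6.23 in chp2D. The pol4 row was 12.3 in WT and 12.9 in both, and the ratio fell by 0.45 and 0.39, each ± 0.05 (limma adjusted p = 7.8e-05 and 0.00028).

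In other pairs the ratio was called where the gene fell and the non-coding RNA did not pass. SPNCRNA.626 shares 66 bases with SPAC806.11 and had 10.9, 9.74 and 9.13 FPKM in WT, 10.7, 10.7 and 9.14 in clr1D and 10.3, 9.03 and 8.52 in clr2D, ranges that overlap. Its ratio to the falling SPAC806.11 was higher by 1.19 ± 0.10 and 0.94 ± 0.10 (limma adjusted p = 5.2e-06 and 7.6e-05). SPNCRNA.1314 touches mug14 by 67 bases: in mit1D and chp2D it had means of 2.74 and 2.77 against 2.24 in WT and was not called, while mug14 fell from 18.7 to 7.26 and 7.02 (limma adjusted p = 0.00035 and 0.00031). SPNCRNA.210 had means of 4.49 to 5.64 in all groups, while SPAPB24D3.07c fell from 48.9 to 30 in clr3D (ratio higher by 0.94 ± 0.22, limma adjusted p = 0.011).

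SPNCRNA.313, inside the row of SPBC354.11c, had 0.659, 0.485 and 0.354 FPKM in WT and 0.984, 1.07 and 0.967 in clr1D, against a gene that went from 12 to 8.26 (ratio higher by 1.45 ± 0.28, limma adjusted p = 0.0035). That call of the ratio is lost when only the 2 groups compared are fitted. SPNCRNA.313 too reached the floor of 1 FPKM in no WT library and entered the test through deletion libraries. SPNCRNA.1481 around rem1 rose less than rem1 in clr2D, by -0.68 ± 0.17 (limma adjusted p = 0.022), a call lost without any 1 of WT replicates 2 and 3 and the clr2D replicates. It is also lost when only the 2 groups compared, or only the 12 libraries of WT and the clr deletions, are fitted. SPNCRNA.1055 touches SPAC26F1.07 by 63 bases and went from 3.37, 3.16 and 2.50 to 4.83, 5.35 and 4.73 in chp2D, above WT, while the gene went from 235 to 176 (limma adjusted p = 0.0056 and 0.039). Its ratio was higher by 1.12 ± 0.23 (limma adjusted p = 0.005).

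snR191, the intron RNA shown above, was among the 2 largest falls relative to a gene in both mit1D and chp2D. It had 176, 177 and 189 FPKM in WT, 145, 146 and 162 in mit1D and 125, 148 and 133 in chp2D, below WT in every library (log2 fold changes -0.25 ± 0.09 and -0.41 ± 0.09, limma adjusted p = 0.044 and 0.0037). Its host nog2, a GTPase gene of ribosome assembly, went up, from 84.1, 87.9 and 89.4 to 102, 111 and 107 in mit1D and 99.6, 99.8 and 98.7 in chp2D. The ratio fell by 0.55 ± 0.09 and 0.61 ± 0.09 (limma adjusted p = 0.0012 and 0.0006).

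Most of the RNAs on small nucleolar RNA genes were called lower in the same strains. Of the 9, 8 were called lower in mit1D and 6 in chp2D, and 2, 2 and 1 in clr1D, clr2D and clr3D, beside 12.5, 10.7, 8.29, 4.99 and 14.1% of all rows called lower. None was called higher by limma on log2 FPKM or by voom, and at an unadjusted p under 0.05 1 was higher, in clr3D. Their median log2 fold change was -0.37 in mit1D and -0.31 in chp2D, beside -0.004 and -0.006 over all rows. The chp2D count was 4 without WT replicate 3 and 4 without any 1 chp2D replicate. The clr1D count was 1 without WT replicate 3, clr1D replicate 1 or clr1D replicate 3, and the clr2D count 1 without WT replicate 3, clr2D replicate 2 or clr2D replicate 3. Without WT replicate 3, 1 was called higher in clr3D. With the replicate block in the 12 libraries where numbers pair, 5 were lower in clr2D and 2 in clr3D.

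SPNCRNA.906, most of which is snR30, an RNA known in budding yeast for 18S ribosomal RNA processing, had 1390, 1380 and 1850 FPKM in WT. It had 958, 990 and 1010 in mit1D and 1030, 1070 and 1080 in chp2D, below WT throughout (log2 fold changes -0.63 ± 0.09 and -0.52 ± 0.09, limma adjusted p = 0.00012 and 0.00072). SPNCRNA.1436 on snR95, picked after its values were seen, had 637, 638 and 725 in WT, 411, 490 and 523 in mit1D and 501, 520 and 491 in chp2D (limma adjusted p = 0.00013 and 0.00087). SPNCRNA.727 had 2800, 2920 and 3180 in WT and 2320, 2450 and 2570 in mit1D, but also 2460, 2420 and 2460 in clr3D (limma adjusted p = 0.00098 and 0.0009). SPNCRNA.1483 on snoZ30 was the exception, with means of 67.1 in WT, 76.3 in mit1D and 72.8 in chp2D, and was not called. The sample codes of mit1D and chp2D differ in form from those of WT. Whether anything that goes with this has a part in these falls was not tested.

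The 36 RNAs on mug and meu genes, which are named for expression in meiosis, rose more often than they fell in clr1D and clr2D. In clr1D 12 were called higher, beside 9.31% of all rows, and in clr2D 8, beside 7.31%. By limma and by voom none was called lower in either; at an unadjusted p under 0.05, the lower ones numbered 2 in clr1D and 0 in clr2D. The higher and lower counts were 4 and 4 in clr3D, 5 and 2 in mit1D, and 7 and 1 in chp2D, beside 14.9 and 14.1%, 14.7 and 12.5%, and 12 and 10.7% of all rows. In clr3D and mit1D both shares of the 36 are below those of all rows. The clr1D count of 12 was 7 without WT replicate 3, 7 without clr1D replicate 1 and 8 without WT replicate 2, and the clr2D count of 8 was 5 without WT replicate 2, WT replicate 3 or clr2D replicate 1. The mit1D count of 5 was 3 without mit1D replicate 1, the chp2D count of 7 was 4 without chp2D replicate 1, and the lower count of 4 in clr3D was 2 without WT replicate 1, WT replicate 2 or clr3D replicate 2. The lower counts in mit1D and chp2D ran from 0 to 3 and from 0 to 1 when 1 library was left out. With the replicate block, 15 were higher and 2 lower in clr1D, and in the 12 libraries where numbers pair it gave 13 higher in clr2D and 9 higher in clr3D. On FPKM as deposited the higher count was 12 in clr1D, 9 in clr2D, 3 in mit1D and 3 in chp2D.

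For some of these RNAs the meiotic gene itself was not called. SPNCRNA.1056, antisense to mug106 over 907 bases and picked after its values were seen, had 4.12, 4.11 and 4.35 FPKM in WT. It had 6.16, 6.69 and 6.22 in clr1D, 5.37, 5.59 and 5.87 in clr2D, with 6.03, 6.64 and 7.31 in clr3D, all above WT (limma adjusted p = 6.2e-05, 0.0021 and 2.2e-05), and 4.0 to 4.74 in mit1D and chp2D. The mug106 row was at 230 in WT and 231, 235 and 217 in the clr deletions. The ratio was higher by 0.58, 0.38 and 0.73, each ± 0.09 (limma adjusted p = 0.00064, 0.016 and 0.00017), and the clr2D call is lost without WT replicate 2 or clr2D replicate 3. That clr2D call is also lost when only the 2 groups compared are fitted. SPNCRNA.1314, which ends in mug14, had 2.60, 2.17 and 1.96 in WT and 4.90, 5.47 and 4.43 in clr1D (limma adjusted p = 5.9e-05). The mug14 row went from 18.7 to 25.8 there and was called with the replicate block alone (limma adjusted p = 0.14, and 0.016 with the block).

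Others rose with the gene. SPNCRNA.1237 and SPNCRNA.1238 both lie antisense to meu10, a gene of spore wall assembly, and their means went from 4.68 to 7.03 and from 2.30 to 4.30 in clr1D (limma adjusted p = 0.001 and 0.0012), while meu10 went from 3.19 to 5.18. They share that gene and are not independent, and the same holds for SPNCRNA.1108 and SPNCRNA.1109 on mug135, at 4.05 to 5.51 and 5.82 to 8.61. Of the 10 on ribosomal protein genes, 3, 2, 1, 2 and 1 were called lower in clr1D, clr2D, clr3D, mit1D and chp2D and 1 was called higher, in chp2D, beside 8.29, 4.99, 14.1, 12.5 and 10.7% of all rows called lower. In clr3D and chp2D that is no more than the share of all rows. Leaving out 1 library gave 2 to 4, 1 to 3, 0 to 1, 2 to 3 and 1 to 2 lower. The clr2D count was 1 without WT replicate 2, WT replicate 3, clr2D replicate 1 or clr2D replicate 3. The clr3D count was 0 without WT replicate 2, WT replicate 3, clr3D replicate 1 or clr3D replicate 3. In chp2D 2 were lower without WT replicate 1, and none was higher without WT replicate 1, WT replicate 3 or chp2D replicate 2. With the replicate block 5, 3 and 2 were lower in clr1D, clr2D and clr3D, and 6, 3 and 4 with the block in those 12 libraries. On FPKM as deposited, 3, 3, 3, 6 and 4 of the 10 were lower. Of the 2 on tRNA genes, 1 was called higher in clr1D and 1 in clr2D.

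Of the genes known to limit antisense RNA or to destroy nuclear RNA, some carry an overlapping non-coding RNA of their own. SPNCRNA.803, inside hrp1, a CHD1-type remodeler gene, went from 44.1, 41.5 and 43.7 FPKM in WT to 37.9, 37.9 and 40 in clr3D, without overlap (limma adjusted p = 0.00092), and hrp1 went from 39.5 to 34.5. SPNCRNA.67, inside epe1, whose product counters heterochromatin, went from 18, 17.5 and 16.6 to 15.8, 14.6 and 14.4 in clr1D and 15.3, 15.2 and 13.9 in clr3D (limma adjusted p = 0.0054 and 0.0026). The epe1 row fell from 16.7 to 14.5 and 14.4.

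SPNCRNA.687, inside cph1, a gene of the Clr6 deacetylase complex, rose from 47.5 to 51.3 in clr3D and 52.1 in chp2D (limma adjusted p = 0.044 and 0.021). SPNCRNA.1639 on hip3, a gene of the HIRA histone chaperone, rose from 32.9 to 36.9 in mit1D and 35.9 in chp2D (limma adjusted p = 0.0079 and 0.041). The others kept a limma adjusted p above 0.05 in all 5 deletions, although with the replicate block SPNCRNA.638 was called higher in clr3D (limma adjusted p = 0.033): SPNCRNA.735 on the exosome helicase gene mtr4, SPNCRNA.638 on cid14, a poly(A) polymerase gene, SPNCRNA.1478 and SPNCRNA.1479 on pab2, a nuclear poly(A)-binding protein gene, SPNCRNA.1638 on hip1, also of HIRA, and SPNCRNA.1406 on rhn1, which acts in transcription termination. Their WT means ran from 3.0 (SPNCRNA.1479) to 82.4 (SPNCRNA.638). The mtr4 row itself rose in mit1D and chp2D, from 41.9 to 50.5 and 48.5 (limma adjusted p = 0.013 and 0.049).

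Over a list of 21 genes that limit antisense or cryptic transcription, 1 rose and 4 fell in clr1D, 6 rose and 2 fell in clr3D, 3 rose and 1 fell in mit1D, and 1 rose in chp2D. In clr2D limma called 0; at an unadjusted p under 0.05 1 was higher and 3 lower, and voom called 1 higher and 1 lower, as did limma with the replicate block. Over 25 genes of the nuclear exosome and RNA elimination, 1 rose and 3 fell in clr1D, 2 fell in clr2D, 2 rose and 5 fell in clr3D, 4 rose and 2 fell in mit1D, and 2 rose and 2 fell in chp2D. Of all rows 9.31, 7.31, 14.9, 14.7 and 12% were higher and 8.29, 4.99, 14.1, 12.5 and 10.7% lower in clr1D, clr2D, clr3D, mit1D and chp2D, so several of these counts, such as both of the first list in mit1D and both of the second in chp2D, are below the share of all rows. The median log2 fold changes ran from -0.01 to 0.03 in the first list and from -0.02 to 0.0 in the second, beside -0.006 to 0.002 over all rows. The catalytic exosome gene dis3 fell from 59.5 to 52.9, 53.1 and 52.4 in clr1D, clr2D and clr3D (limma adjusted p = 0.00043, 0.00072 and 0.00017). mmi1, whose product marks meiotic RNA for decay, fell from 68.1 to 58.7, 59.9 and 62.2 there (limma adjusted p = 3e-05, 0.00017 and 0.0017) and to 64.1 in mit1D (limma adjusted p = 0.02).

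The mit1D and chp2D libraries, which share a form of sample code and a list of marker alleles, were compared directly. Of 1067 overlapping non-coding RNAs 2 (0.187%) were called by limma, beside 0.164% of all rows (11 of 6693). Both are described above. SPNCRNA.1401, wholly inside the gene deleted in mit1D, was listed at 0 there and at 12.6, 14 and 14 in chp2D. SPNCRNA.1213 stood at 0.328 and 14.5. Of all rows, 0.0896% were called higher and 0.0747% lower in mit1D than in chp2D, and both of these RNAs were lower. By voom on recovered reads 1 of the 1067 was called.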

How the data were processed

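RNA was measured in 18 libraries: 6 genotypes with 3 replicates each. Per the labels' protocols, ribosomal RNA was removed with Ribo-Zero Gold and libraries were made with the TruSeq Stranded Total RNA kit. Per the submitters' processing notes, the authors aligned reads with GSNAP to build ASM294v2. The authors deposited FPKM values, 1 column per library. No source used here gives the counting program or its strand setting. A further 3 sample columns tied to no sample were not used.

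Within each library the FPKM values came out as whole reads (100% within 0.1 read), which gave the depth of 26.2 to 101.8 M reads. FPKM were then scaled by median ratios across libraries. Rows with at least 1 FPKM in at least 3 libraries (6693) were tested with limma 3.58.1 in R 4.3.3 on log2(FPKM + 1), and 2846 overlapping pairs on the difference of log2(FPKM + 0.1), each in 1 fit of all libraries with Benjamini-Hochberg adjustment. Fold changes on these scales understate those of low rows. Standard errors follow ±, with 3 replicates a group. Replicates are cultures of 1 strain, so p-values measure the spread between cultures. Tables were handled in Python 3.11.15 with pandas 2.3.3 and NumPy 2.4.6, and drawn with matplotlib 3.10.9. The scripts were tested on simulated data.

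Names, strands and sequences came from RefSeq ASM294v3 by ID (6844 IDs matched, 4410 with a symbol). Coordinates are those of the deposited table; 1016 of 1021 matched overlapping non-coding RNAs have the same interval there.

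The named genes were the 4 largest rises and falls among called non-coding RNAs of each deletion, the 2 largest each way relative to the gene, the 5 highest in WT, those on deleted, marker or listed genes, and the 5 highest and lowest correlations. The members and lists were chosen with earlier results of these data known. Replicate numbers pair the clr deletions with WT: the sample descriptions share a label by number, and same-numbered libraries deviated from their group means with r of 0.322 to 0.563 in clr1D, 0.25 to 0.498 in clr2D and 0.358 to 0.51 in clr3D. For mit1D (-0.099 to 0.125) and chp2D (-0.055 to 0.001) they do not. Alternatives left out each replicate, changed the scaling, pseudocount, filter and libraries fitted, added a replicate block, weighted all overlapped genes, and used voom on the recovered reads.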

Additional observations from a re-analysis of the deposited data

How the results depend on the processing

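No named value changed sign under the alternatives run, but on FPKM as deposited the chp2D calls turned from 150 higher and 102 lower to 101 and 131. Fitting only the 2 groups compared, the counts of changed non-coding RNAs were 105 in clr1D, 67 in clr2D and 169 in clr3D, and the counts relative to the gene 46, 28 and 31. Fewer libraries then set the spread. With only the 12 libraries of WT and the clr deletions, 51 pairs were called in clr2D, and with the replicate block in those libraries 251 non-coding RNAs. With the replicate block in all 18 libraries the counts were 254, 199, 355, 324 and 299 in clr1D, clr2D, clr3D, mit1D and chp2D, and relative to the gene 110, 92, 123, 184 and 200 (counts by kind of gene with the block are given beside them for the clr deletions, where numbers pair). For mit1D and chp2D, where they do not, the block moved the lower counts of RNAs on mug and meu genes to 4 and 3 and that on ribosomal protein genes in chp2D to 3. Voom on recovered reads called 1 between mit1D and chp2D. Leaving out 1 replicate at a time gave, for the deletions in that order, 153 to 181, 102 to 125, 232 to 259, 208 to 247 and 178 to 237, and 2 between mit1D and chp2D. Relative to the gene it gave 76 to 86, 53 to 62, 68 to 81, 103 to 148 and 111 to 147. The cause of these differences was not tested. Of the named calls under an alternative, 1044 were kept and 26 lost significance, in 11 results. Depth limits the weakest RNAs: 3 were at 0 in at least 1 library.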
